A study of Mus musculus with 10 samples.

Results

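Muscle stem cells cultured for 24 h with the solvent DMSO (vehicle) were compared with the same kind of cells taken directly after sorting (fresh). The comparison was defined by the sample labels alone and took in 6 of the 10 libraries of the series, 3 fresh and 3 vehicle, and all 12803 genes of the deposited expression table. The 4 libraries of cells treated with Tubastatin A, an inhibitor of the deacetylase HDAC6, were not compared here.

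All cells came from limb muscles of young male C57BL/6 mice and were sorted for VCAM and for the absence of CD45, CD31 and Sca1, with each library made from the cells of 1 animal. Fresh cells were at 0 h ex vivo, and vehicle cells had spent 24 h in Ham's F-10 medium with 10% horse serum and antibiotics on plates coated with extracellular matrix, in an amount of DMSO equal to that used for the inhibitor. Vehicle cells therefore differ from fresh cells in time, plating, medium, serum and solvent at once, and these cannot be told apart. The labels give the 0 h libraries the treatment vehicle too, and these were taken as fresh from their titles and time. The labels do not say whether a fresh and a vehicle library of the same number came from 1 animal.

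Muscle stem cells, also called satellite cells, lie between the muscle fibre and its basal lamina and rest outside the cell cycle in uninjured muscle. They are marked by the transcription factor Pax7 and held at rest by signals such as Notch and the calcitonin receptor. When muscle is injured, or when the cells are plated, they leave rest, enlarge, build mitochondria and ribosomes, and copy their DNA before a first division that comes later than the following ones.

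Levels are given as RPKM, read counts divided by gene length and by the library size as scaled by the authors. Log2 changes are differences of the group means of log2(RPKM + 1), vehicle minus fresh, each given with a standard error (SE) and with limma's adjusted p over all 12803 genes. The added 1 RPKM understates the change of genes with low levels. Reads recovered from the values, for genes whose exon length was matched, numbered 39.9M to 54.9M per library. By the authors' scaled library sizes of 29.5M to 48.0M, 1 read in a gene of 1 kb was worth 0.0208 to 0.0339 RPKM. Values under that of 1 read are floor values in place of zeros. A gene was called higher (rose) or lower (fell) when the adjusted p was under 0.05. In bulk RNA, fewer cells of a type and less RNA per cell cannot be told apart.

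The largest differences were losses of abundant transcripts. Of the 12803 genes, 3738 rose (29.2%) and 4132 fell (32.3%), so 61.5% were called, and 67.6% of genes had groups of libraries that did not overlap. The split was uneven by size. At least 4-fold differences numbered 315 higher and 839 lower, at least 16-fold differences 4 higher and 154 lower, and at least 64-fold differences 0 higher and 29 lower. When RPKM were rescaled to the same sum in every library, 5990 genes rose and 2730 fell, and the order turned at 4-fold (755 higher, 571 lower) but not at 16-fold (16 higher, 109 lower) or 64-fold (0 higher, 18 lower). Of the 48 genes with a fresh mean of at least 1000 RPKM 45 fell and 0 rose, with a median log2 change of -3.70, and of the 9 genes with a vehicle mean of at least 1000 RPKM 2 rose and 1 fell. Both sets were chosen by the level in 1 of the groups compared, so these counts are a description.

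**Figure D1:**
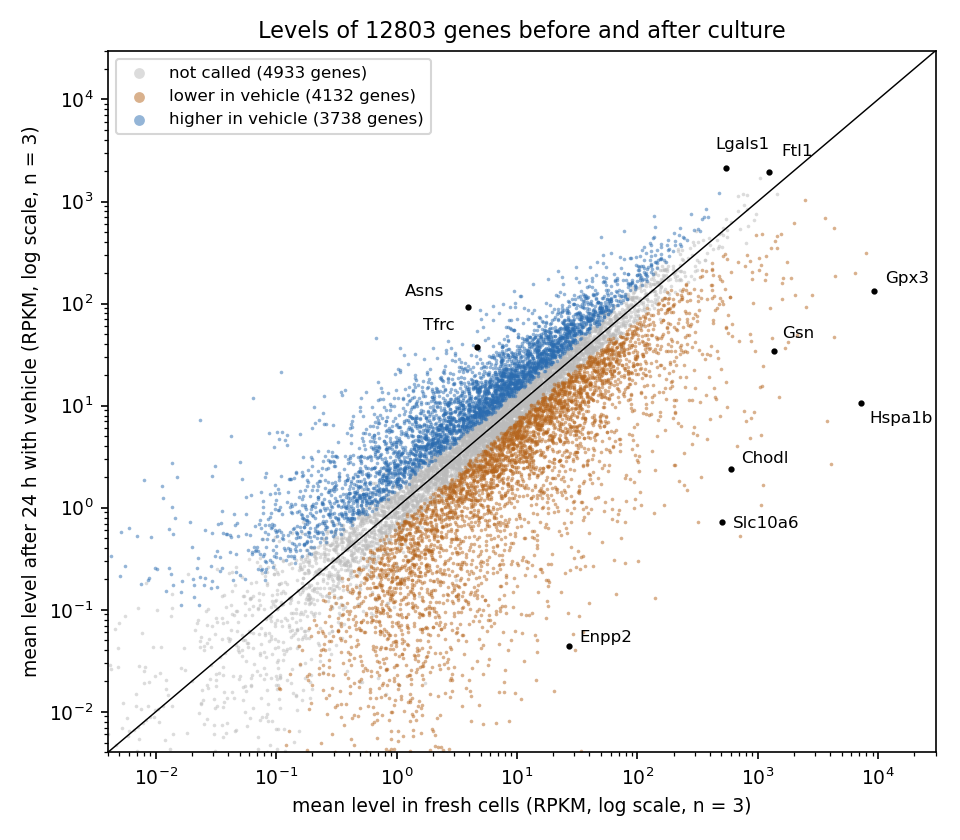
Each point is 1 of 12803 genes, with the mean RPKM of the 3 fresh libraries on the horizontal and of the 3 vehicle libraries on the vertical axis, both on log scales; colours give the call, and the line marks equal levels. Points below the line reach much farther from it than points above it: 154 genes were at least 16-fold lower and 4 at least 16-fold higher in vehicle.

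The RNA of fresh cells was concentrated in few genes. The 10 most abundant genes of each library held 17.4%, 12.4% and 11.3% of summed RPKM in fresh and 4.86%, 5.09% and 5.25% in vehicle libraries, and the 100 most abundant held 33.3% to 40.8% against 19.5% to 21.1%. From 39 to 60 genes reached 1000 RPKM in a fresh library, and 7 to 9 did in a vehicle library. Gpx3, a secreted glutathione peroxidase, stood at 7307, 11576 and 9053 RPKM in fresh and 127, 116 and 151 RPKM in vehicle libraries, the highest mean of any gene in fresh cells. Its log2 change was -6.12 (SE 0.30, limma adjusted p = 6.0e-06). In vehicle cells the highest means belonged to Lgals1, the lectin galectin-1, and to Ftl1, a ferritin chain. Lgals1 stood at 495, 664 and 477 RPKM in fresh and 1681, 2302 and 2419 RPKM in vehicle libraries and rose by 1.96 (SE 0.30, limma adjusted p = 9.4e-04), whereas Ftl1, at 1084, 1593 and 1013 RPKM in fresh and 1841, 1937 and 2009 RPKM in vehicle libraries, was not called (SE 0.32, limma adjusted p = 0.1). Ftl1 was called higher after rescaling RPKM to the same sum in every library (log2 change 1.28), in the fit of all 10 libraries, with array quality weights, with voom and without fresh replicate 2.

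**Figure D2:**
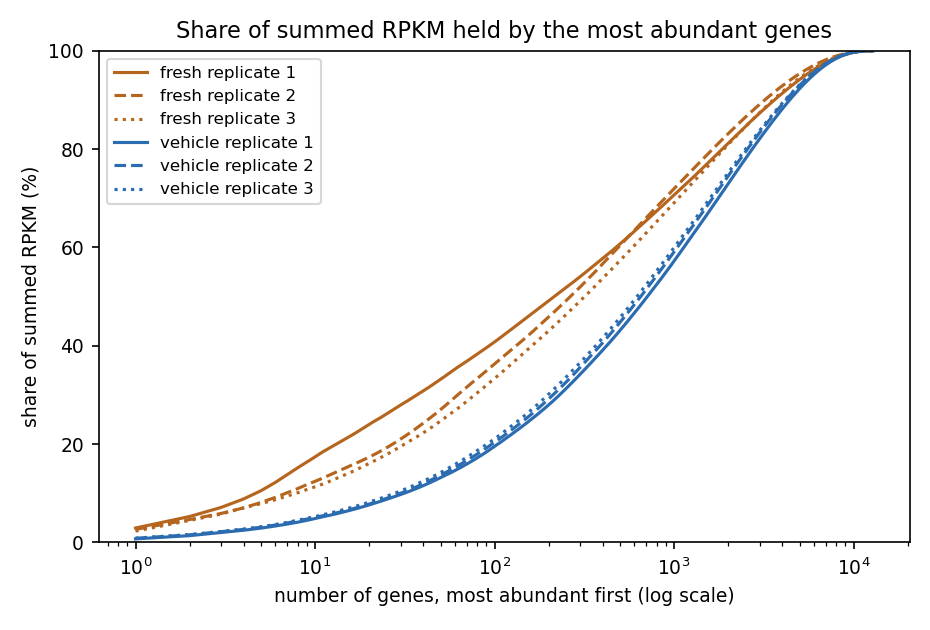
The share of summed RPKM (vertical, %) held by the most abundant genes of each library is plotted against their number (horizontal, log scale), with 1 line per library. The 3 fresh lines lie above the 3 vehicle lines: the 10 most abundant genes hold 11.3% to 17.4% in fresh and 4.86% to 5.25% in vehicle libraries.

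Some transcripts fell from high levels to almost none. With at least 20 RPKM in every fresh and at most 1 RPKM in every vehicle library, 35 genes met the limits for a loss, and 0 genes met the mirrored limits for a gain. Because the limits use the same libraries as the test, this is a description. Slc10a6 (chr5:103605711-103629403), a transporter of sulphated steroids, stood at 586, 451 and 484 RPKM in fresh and 0.844, 0.736 and 0.609 RPKM in vehicle libraries. Has1, which makes hyaluronan, stood at 58.7, 129.5 and 119 RPKM in fresh and 0.212, 0.263 and 0.425 RPKM in vehicle libraries, and its partner Tnfaip6, which binds hyaluronan, at 480.4, 909 and 755 RPKM in fresh and 0.549, 0.56 and 0.483 RPKM in vehicle libraries. The 3 genes had log2 changes of -8.19, -6.24 and -8.82. Among the 35 were also Vtn, which encodes the adhesion protein vitronectin, at 69.6, 94.9 and 70.5 RPKM in fresh and 0.133, 0.31 and 0.418 RPKM in vehicle libraries, Plat, the tissue plasminogen activator, at 33.3, 48.6 and 47.9 RPKM in fresh and 0.197, 0.411 and 0.2 RPKM in vehicle libraries, and Enpp2, the enzyme that makes lysophosphatidic acid, at 32.4, 22.3 and 26.4 RPKM in fresh and 0.0433, 0.0687 and 0.0193 RPKM in vehicle libraries. Of the chemokines among them, Cxcl10 went 35.4 ± 8.43 to 0.333 ± 0.121 RPKM (mean ± SD, n = 3 in each group), Cxcl2 64.7 ± 38.7 to 0.309 ± 0.0781 RPKM and Ccl19 33.03 ± 4.63 to 0.0872 ± 0.0569 RPKM. Among regulators, Lmcd1, a LIM-domain cofactor, fell by 5.86 and Rgs2, which shortens G protein signals, by 3.88.

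Of genes averaging at least 4 on the log2(RPKM + 1) scale, the 20 that rose most had fresh means between 3.91 and 50.1 RPKM; this limit on the average leaves out genes that rose from almost none to a low level. Mtap, which recycles the sulphur compound left by polyamine synthesis, rose from 8.84 ± 0.879 to 92.9 ± 6.74 RPKM (mean ± SD, n = 3 in each group), with a log2 change of 3.26 (SE 0.13, limma adjusted p = 2.9e-06). Aif1l, an actin-bundling protein, stood at 13.5, 14.4 and 13.1 RPKM in fresh and 146, 159 and 166 RPKM in vehicle libraries. Pak1, a kinase downstream of Rac and Cdc42, stood at 7.45, 11.2 and 10.3 RPKM in fresh and 91.1, 93.1 and 92.3 RPKM in vehicle libraries, Dapk2, a death-associated protein kinase, at 10.97, 10.1 and 7.72 RPKM in fresh and 98.98, 103 and 99.01 RPKM in vehicle libraries, and Esd, a hydrolase of formaldehyde breakdown, at 28.3, 74.95 and 46.99 RPKM in fresh and 422, 461 and 459 RPKM in vehicle libraries. Their log2 changes were 3.43, 3.15, 3.27 and 3.24. In these 5 genes the vehicle libraries lay close together. The 20 were taken from called genes whose groups did not overlap, so the lack of overlap was set by the choice.

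**Figure D3:**
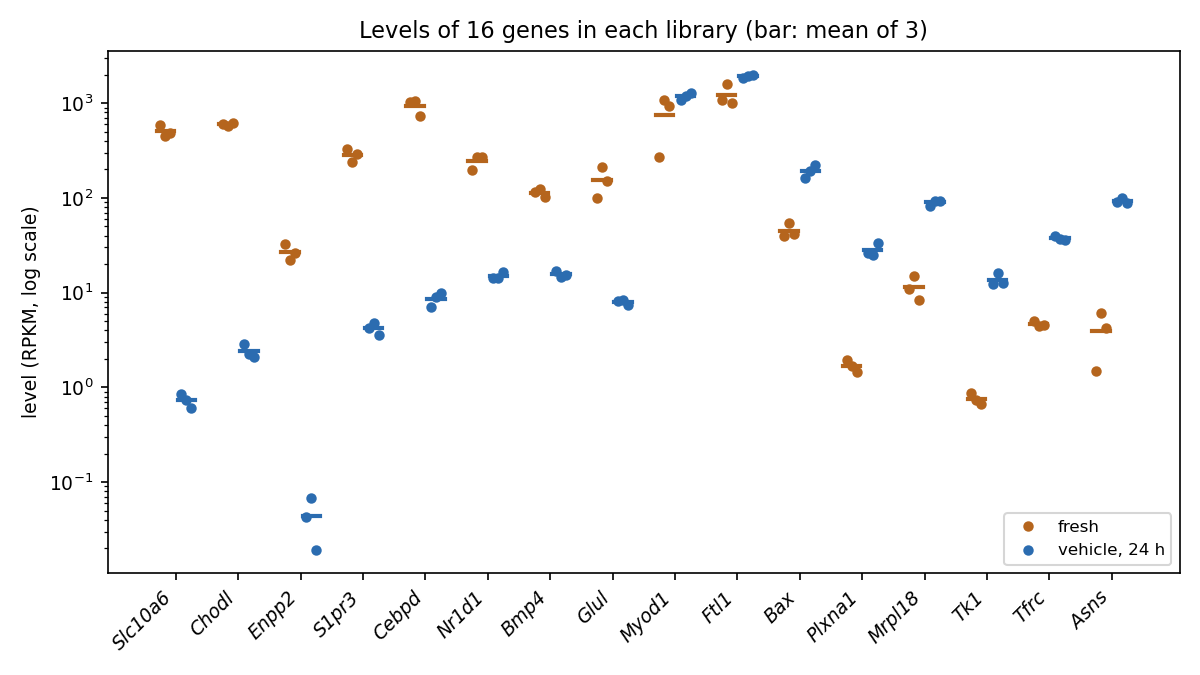
Levels of 16 genes in each library are shown as points on a log scale in RPKM, with the mean of 3 libraries as a bar, fresh beside vehicle. The genes on the left fell by up to 8.19 on the log2 scale (Slc10a6), those on the right rose by up to 4.39 (Asns), and Myod1 and Ftl1 in the middle were not called, although both were called higher after rescaling to the same sum.

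Promoter sequences of genes that moved far are shown because some of the short motifs searched were unevenly spread over the genes that fell and rose. In the 250 bases before the start of 9980 genes, each motif was searched on both strands. The first promoter listed for a gene in the RefSeq table (GRCm38.p6) was used, and the promoters of a whole chromosome were left out. The AP-1 motif TGANTCA was found in 4.16% of all promoters, in 7.98% of the 614 promoters of genes at least 4-fold lower and in 1.54% of the 259 promoters of genes at least 4-fold higher. The E2F motif (TTTCCCGC, TTTGGCGC, TTTCGCGC or TTTGCCGC) had the opposite order, with 3.53%, 2.28% and 7.72%. A TATA box (TATAAA) was held by 6.54% of all promoters, 10.9% of those of lower genes and 5.02% of those of higher genes, and the interferon element (TTTC, any 2 bases and TTTC) by 2.42%, 5.37% and 3.09%. A GC box (GGGCGG) was held by 60.8%, 59.8% and 65.6%. Other motifs were spread more evenly: the E-box (CACGTG) was held by 8.66%, 7.49% and 8.88%, and CCAAT by 36.7%, 39.3% and 41.3%. Further motifs searched are not reported here. The shares of higher genes rest on few promoters, 4 for AP-1, 20 for E2F and 8 for the interferon element. These shares are descriptions, and a match is not a bound site.

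The 150 bases before the start are given 5′ to 3′ for genes whose window holds the motif, picked after their values were seen from those that changed most. Capitals mark only the motif named. AP-1 motifs stand in the promoters of Tnfaip6, chr2:52037963-52038112 (plus strand), of Col6a1, a collagen VI chain, chr10:76726045-76726194 (minus strand), and of Bag3, a partner of the chaperone HSP70, chr7:128523433-128523582 (plus strand), which fell by 8.82, 5.79 and 5.35.
Tnfaip6: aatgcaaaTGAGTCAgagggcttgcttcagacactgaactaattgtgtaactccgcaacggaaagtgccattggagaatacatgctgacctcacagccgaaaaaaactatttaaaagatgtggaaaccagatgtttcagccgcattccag
Col6a1: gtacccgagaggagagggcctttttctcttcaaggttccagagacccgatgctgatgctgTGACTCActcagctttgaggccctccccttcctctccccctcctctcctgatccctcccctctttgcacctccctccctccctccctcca
Bag3: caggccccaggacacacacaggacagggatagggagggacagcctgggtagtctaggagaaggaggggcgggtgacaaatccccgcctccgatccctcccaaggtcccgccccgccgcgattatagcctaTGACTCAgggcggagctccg
The motif begins 142, 90 and 20 bases before the start. The interferon element stands 59 bases before the start of Gbp2, an interferon-induced GTPase, chr3:142620513-142620662 (plus strand), which fell by 4.31.
Gbp2: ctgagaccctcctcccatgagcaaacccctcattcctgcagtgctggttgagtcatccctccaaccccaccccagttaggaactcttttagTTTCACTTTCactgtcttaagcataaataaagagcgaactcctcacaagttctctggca
E2F motifs stand in the promoters of Cdca7, chr2:72476069-72476218 (plus strand), and Hells, chr19:38930840-38930989 (plus strand), which together remodel chromatin at repeats, and of Cdc6, chr11:98908001-98908150 (plus strand), which licenses replication origins. They rose by 3.58, 3.54 and 3.56.
Cdca7: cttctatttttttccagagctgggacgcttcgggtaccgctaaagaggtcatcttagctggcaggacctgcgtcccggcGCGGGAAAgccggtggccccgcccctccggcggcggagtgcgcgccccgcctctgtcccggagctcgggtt
Hells: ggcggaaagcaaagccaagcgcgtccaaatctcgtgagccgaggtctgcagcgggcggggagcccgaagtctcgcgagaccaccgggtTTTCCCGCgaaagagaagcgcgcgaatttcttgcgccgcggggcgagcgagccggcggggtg
Cdc6: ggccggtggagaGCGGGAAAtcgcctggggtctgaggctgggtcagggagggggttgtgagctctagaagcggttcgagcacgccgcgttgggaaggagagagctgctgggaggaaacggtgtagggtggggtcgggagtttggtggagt
Their motifs begin 71, 62 and 138 bases before the start.

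Among signalling pathways, JAK-STAT genes, which carry cytokine signals to the nucleus, fell in most measured members. Of 29 measured genes 21 fell and 1 rose, with a median log2 change of -1.55 against -0.03 over all genes, and 32.3% of all genes fell. Stat3, the transcription factor of the interleukin 6 family, stood at 162, 175 and 285 RPKM in fresh and 10.2, 7.73 and 7.93 RPKM in vehicle libraries, a log2 change of -4.40 (SE 0.23, limma adjusted p = 7.9e-06). Socs3, its feedback inhibitor, stood at 651, 243 and 307 RPKM in fresh and 7.59, 8.36 and 6.48 RPKM in vehicle libraries, and Pim1, a kinase that STAT factors induce, at 15.6, 26.4 and 24.2 RPKM in fresh and 0.93, 0.854 and 1.002 RPKM in vehicle libraries. Their log2 changes were -5.44 and -3.55. Cebpd and Cebpb, transcription factors of the acute phase response, changed by -6.59 and -4.02, with Cebpd at 1026, 1056 and 733 RPKM in fresh and 7.13, 9.03 and 9.84 RPKM in vehicle libraries. Fresh replicate 1 held the highest Socs3 level of the fresh libraries, and in all 5 genes the groups did not overlap.

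Growth factor receptors, their ligands and the inhibitors of the pathway fell more often than they rose. Of 36 receptor tyrosine kinases and their ligands 22 fell and 7 rose (median -0.89). Among ligands, Gas6 and Pros1, which activate the TAM receptors, fell by 2.89 and 4.22, with Gas6 at 119, 101 and 104 RPKM in fresh and 13.01, 12.05 and 16.2 RPKM in vehicle libraries. The TAM receptor Axl went the other way, at 69.7, 65.1 and 80.2 RPKM in fresh and 304, 299.8 and 252 RPKM in vehicle libraries, a log2 change of 1.98 (SE 0.16, limma adjusted p = 4.6e-05). Vegfa, the endothelial growth factor, stood at 132, 114 and 143 RPKM in fresh and 27.05, 27.3 and 23.3 RPKM in vehicle libraries, and Igf1, the insulin-like growth factor, at 15.04, 8.53 and 10.3 RPKM in fresh and 0.37, 0.304 and 0.306 RPKM in vehicle libraries. They changed by -2.28 and -3.18. The fibroblast growth factor receptors Fgfr1 and Fgfr4 changed by -2.14 and -2.39. Among the 16 measured inhibitors of this pathway (Sprouty and Spred proteins and phosphatases of MAP kinases) 11 fell and 3 rose. Dusp1, an immediate early phosphatase, stood at 1199, 1188 and 859.8 RPKM in fresh and 15.1, 17.5 and 14.5 RPKM in vehicle libraries, and Dusp8, which acts on JNK and p38, at 94.5, 52.5 and 65.6 RPKM in fresh and 0.753, 0.882 and 1.19 RPKM in vehicle libraries, with log2 changes of -6.01 and -5.17. Dusp9 and Dusp7, which act on ERK, rose by 3.11 and 1.96, with Dusp9 at 0.29, 0.61 and 0.615 RPKM in fresh and 11.4, 12.3 and 12.1 RPKM in vehicle libraries. Members of 1 family thus moved in both directions. Whether the direction goes with the kinase they act on was not tested.

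BMP and TGF-beta genes fell in 28 of 45 measured members and rose in 2 (median -0.97). The ligand Bmp4 stood at 115, 124 and 103 RPKM in fresh and 16.8, 14.6 and 15.4 RPKM in vehicle libraries, a log2 change of -2.79 (SE 0.13, limma adjusted p = 5.1e-06), and Bmp2 and Bmp6 changed by -2.82 and -2.47. Bambi, a decoy receptor, and Skil, a repressor of SMAD factors, fell by 2.99 and 2.61, and Id4, an inhibitor of bHLH factors induced by BMP, stood at 8.59, 14.6 and 11.6 RPKM in fresh and 0.184, 0.224 and 0.249 RPKM in vehicle libraries. Of 42 Wnt genes 19 fell and 5 rose (median -0.27), and 16 fell and 11 rose after rescaling to the same sum. Wnt4, a ligand of resting muscle stem cells, stood at 5.73, 8.37 and 7.08 RPKM in fresh and 0.0199, 0.0278 and 0.0904 RPKM in vehicle libraries, and Sfrp5, a secreted Wnt antagonist, at 7.75, 7.33 and 5.100 RPKM in fresh and 0.00587, 0.00587 and 0.0117 RPKM in vehicle libraries. The receptor Ror1 fell by 3.86. Tcf7, a transcription factor at the end of the pathway, stood at 4.43, 4.41 and 4.88 RPKM in fresh and 17.7, 15.7 and 18.4 RPKM in vehicle libraries and rose by 1.71 (SE 0.13, limma adjusted p = 3.6e-05).

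Receptors that sense the surroundings fell more often than they rose. Of 60 measured G protein coupled receptors 36 fell and 9 rose (median -0.63), and 25 fell and 13 rose after rescaling to the same sum. S1pr3, a sphingosine 1-phosphate receptor (chr13:51408639-51422797), stood at 326, 239 and 292 RPKM in fresh and 4.25, 4.74 and 3.57 RPKM in vehicle libraries, with a log2 change of -5.78 (SE 0.16, limma adjusted p = 1.4e-06). Its relative S1pr1 changed by -2.75. Gpr176, an orphan receptor, rose from a low level, at 0.176, 0.165 and 0.0248 RPKM in fresh and 3.55, 4.85 and 4.05 RPKM in vehicle libraries. Of 11 regulators of G protein signalling, which switch such signals off, 2 rose (18.2%) and 3 fell (27.3%). Of all genes 29.2% rose and 32.3% fell. Rgs4 stood at 80.5, 104 and 128 RPKM in fresh and 1.76, 1.36 and 1.16 RPKM in vehicle libraries and changed by -5.42, while Rgs19 stood at 7.24, 9.89 and 5.23 RPKM in fresh and 36.99, 39.2 and 42.6 RPKM in vehicle libraries and rose by 2.30. Rgs5, a pericyte marker as well, fell by 3.02.

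Of 52 ion channels 10 rose and 19 fell (median -0.17); 36.5% lower is near the 32.3% of all genes. Kcne4, a subunit that restrains potassium channels, stood at 23.99, 19.3 and 15.6 RPKM in fresh and 0.314, 0.492 and 0.244 RPKM in vehicle libraries, with a log2 change of -3.92. Of 46 guidance receptors and ligands 12 rose (26.1%) and 20 fell (43.5%), where 29.2% and 32.3% of all genes did. This majority turned to 15 higher and 14 lower when RPKM were rescaled to the same sum in every library. The secreted semaphorin Sema3b stood at 43.97, 30.6 and 30.4 RPKM in fresh and 1.16, 1.54 and 0.691 RPKM in vehicle libraries, and Plxna1 (chr6:89316314-89362620), a plexin receptor for semaphorins, at 1.93, 1.69 and 1.46 RPKM in fresh and 26.4, 25.03 and 33.7 RPKM in vehicle libraries. Sema3b changed by -4.08 and Plxna1 by 3.44 (SE 0.16, limma adjusted p = 5.6e-06), so a ligand and a receptor of 1 family moved apart.

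Clock, FoxO and imprinted genes each fell in most members. The clock list fell in 18 of 22 measured genes and rose in 0 (median -1.76). Nr1d1, a nuclear receptor that represses Arntl, stood at 199, 271 and 272 RPKM in fresh and 14.3, 14.3 and 16.6 RPKM in vehicle libraries, a log2 change of -3.94 (SE 0.17, limma adjusted p = 3.5e-06). Per1, a repressor of the clock's own activators, stood at 23.6, 11.6 and 15.9 RPKM in fresh and 0.748, 0.531 and 0.65 RPKM in vehicle libraries, and Nfil3, a repressor at D-box elements, at 319, 263 and 228 RPKM in fresh and 11.97, 11.5 and 10.5 RPKM in vehicle libraries. Bhlhe40, a repressor, and Rora, the activator that opposes Nr1d1, changed by -3.34 and -3.38. Time of day at collection is not given in the labels, and its part was not tested.

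FoxO factors act when insulin signalling is low. Of 19 FoxO genes and their targets 15 fell and 1 rose (median -1.75). Foxo1 itself stood at 25.8, 20.4 and 16.7 RPKM in fresh and 4.16, 4.24 and 4.54 RPKM in vehicle libraries, and its targets Ccng2, a cyclin G of resting cells, and Irs2, an adaptor of the insulin receptor, changed by -3.50 and -3.34, with Ccng2 at 53.4, 46.6 and 49.2 RPKM in fresh and 3.899, 3.32 and 3.27 RPKM in vehicle libraries. Imprinted genes, of which only 1 parental copy is active, fell in 17 of 23 measured members and rose in 2 (median -1.39). The noncoding RNA Meg3 and its neighbour Dlk1 had log2 changes of -3.06 and -1.55, with Meg3 at 7.702, 7.64 and 9.104 RPKM in fresh and 0.0818, 0.101 and 0.095 RPKM in vehicle libraries. Plagl1, a zinc finger regulator of other imprinted genes, fell by 2.13.

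Genes of interferon response, complement and antigen presentation fell as groups. Of 32 interferon genes 27 fell and 3 rose (median -1.48). Irf8, a transcription factor best known from myeloid cells, stood at 35.3, 33.95 and 41.9 RPKM in fresh and 0.411, 0.215 and 0.187 RPKM in vehicle libraries, a log2 change of -4.90 (SE 0.15, limma adjusted p = 1.6e-06). Irf9 and Irf7, transcription factors of the interferon response, changed by -2.93 and -2.81, and Gbp2 stood at 23.2, 40.8 and 44.5 RPKM in fresh and 1.05, 0.566 and 0.825 RPKM in vehicle libraries. Of 23 complement and antigen presentation genes 20 fell and 1 rose (median -1.58). C1ra, a protease of the first complement component, stood at 14.1, 15.6 and 14.7 RPKM in fresh and 0.461, 0.399 and 0.434 RPKM in vehicle libraries, and B2m, the light chain of class I molecules, at 368, 837 and 566 RPKM in fresh and 92.3, 115 and 139 RPKM in vehicle libraries. They changed by -3.46 and -2.28.

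Markers of other cell types moved with these groups. The 3 measured immune markers (of 9 listed) summed to 10.2 to 21.6 RPKM in fresh and 0.731 to 0.946 RPKM in vehicle libraries, the 9 endothelial markers to 45.2 to 54.7 RPKM in fresh and 3.31 to 4.51 RPKM in vehicle libraries, and the 9 markers of fibro-adipogenic progenitors to 1799.6 to 2239 RPKM in fresh and 69.7 to 84.8 RPKM in vehicle libraries. All 3 immune, 8 endothelial and 8 progenitor markers fell, though the immune marker Cd68 was not called after rescaling to the same sum. In the progenitor sum, Gsn, the actin-severing gelsolin, and Col3a1, a collagen chain, gave the largest parts, and Pdgfra, the defining receptor of these cells, stood at 0.218, 0.00676 and 0.125 RPKM in fresh and 0.00416, 0.0116 and 0.00445 RPKM in vehicle libraries and was not called, but was called lower with voom, with array quality weights and without fresh replicate 2. Cd74 and Lyz2, abundant in immune cells, stood at 5.15, 13.3 and 6.73 RPKM in fresh and 0.0248, 0.0556 and 0.0399 RPKM in vehicle libraries and at 3.75, 5.28 and 3.47 RPKM in fresh and 0.00848, 0.0177 and 0.017 RPKM in vehicle libraries. Summed levels were 199 to 244 RPKM in fresh and 175 to 239 RPKM in vehicle libraries for 7 pericyte and smooth muscle markers, of which 6 fell (5 after rescaling) with a median log2 change of -1.36. They were 80.6 to 115 RPKM in fresh and 18.5 to 26.8 RPKM in vehicle libraries for 8 of 10 myofibre markers, 9.53 to 12.7 RPKM in fresh and 0.838 to 1.17 RPKM in vehicle libraries for 3 of 6 Schwann cell markers and 7.24 to 29.5 RPKM in fresh and 0.0884 to 0.23 RPKM in vehicle libraries for 2 of 5 erythroid markers, and all measured members of these 3 sets fell. Of the muscle stem cell markers 11 of 12 also fell, with sums of 3855 to 4066 RPKM in fresh and 537 to 555 RPKM in vehicle libraries. The part of other cells in the groups above was not tested. The tenocyte list had 1 member that went the other way: Scx, the transcription factor of tendon, stood at 14.5, 8.89 and 6.64 RPKM in fresh and 65.7, 75.6 and 70.2 RPKM in vehicle libraries and rose by 2.76 (SE 0.25, limma adjusted p = 7.5e-05), while Tnmd, the tendon protein tenomodulin, stood at 2.52, 5.71 and 4.73 RPKM in fresh and 0.0308, 0.069 and 0.132 RPKM in vehicle libraries and fell.

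Mitochondrial genes of the nucleus and of the mitochondrion moved in opposite directions. The mitochondrial ribosome, which translates the genes of the organelle, rose in 68 of 77 members and fell in 1, the median being 1.14 against -0.03 over all genes, of which 29.2% rose. Mrpl18 stood at 10.9, 14.9 and 8.38 RPKM in fresh and 82.2, 93.9 and 92.4 RPKM in vehicle libraries, a log2 change of 2.90 (SE 0.20, limma adjusted p = 2.3e-05), and Mrpl34 and Mrpl44 rose by 2.87 and 2.25. Import into mitochondria rose in 19 of 28 genes and fell in 0, among them Tomm40, the channel of the outer membrane, at 26.8, 42.6 and 30.8 RPKM in fresh and 112, 121 and 126 RPKM in vehicle libraries, and Timm13, a chaperone between the membranes, which rose by 1.79. Of 81 nuclear genes of the respiratory chain 40 rose and 4 fell (median 0.54). The 4 that fell included Cox7a1 and Cox4i2, subunits of complex IV found in particular tissues. Of 11 measured respiratory chain genes on the mitochondrial DNA 0 rose and 9 fell (median -1.04). COX1, of complex IV, stood at 1019.8, 1111 and 956 RPKM in fresh and 267, 240.2 and 330.4 RPKM in vehicle libraries, and CYTB, of complex III, at 1519, 1691 and 1497 RPKM in fresh and 448, 456 and 550.1 RPKM in vehicle libraries, with log2 changes of -1.89 and -1.70. Within a library, summed RPKM of the mitochondrially over the nuclear encoded genes was 0.915, 0.631 and 0.800 in fresh and 0.277, 0.226 and 0.282 in vehicle libraries. This ratio does not depend on how libraries are scaled, and its groups did not overlap (exact two-sided permutation test, p = 0.1, the smallest that 3 against 3 allow). The count of nuclear respiratory genes that rose was 23 without fresh replicate 3, 23 without vehicle replicate 2 and 24 without vehicle replicate 3, against 40.

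Genes of protein synthesis rose more often than they fell, with the ribosomal proteins themselves least firmly. Of all genes 29.2% rose and 32.3% fell. Of 20 cytosolic tRNA synthetases, which load amino acids on tRNA, 13 rose and 0 fell. Vars, for valine, stood at 52.7, 29.3 and 43.1 RPKM in fresh and 172, 172 and 151 RPKM in vehicle libraries and Mars, for methionine, at 42.5, 41.2 and 44.03 RPKM in fresh and 129, 131 and 113 RPKM in vehicle libraries. Subunits of RNA polymerases I and III, which make ribosomal and transfer RNA, rose in 17 of 33 and fell in 3. The alternative subunits Polr3g and Polr3gl moved apart, with Polr3g at 2.79, 2.11 and 1.95 RPKM in fresh and 12.9, 14.2 and 14.6 RPKM in vehicle libraries and Polr3gl at 7.52, 6.64 and 9.15 RPKM in fresh and 3.11, 2.44 and 2.33 RPKM in vehicle libraries, log2 changes of 2.19 and -1.27. Of 79 ribosomal protein genes 37 rose and 0 fell (median 0.68). Rpl29 stood at 80.8, 124 and 87.3 RPKM in fresh and 237, 281 and 334 RPKM in vehicle libraries and rose by 1.54. The count was 21, 61 and 15 without fresh replicates 1, 2 and 3, and 17 and 13 without vehicle replicates 2 and 3. Over all 12803 genes, 3834 and 3292 rose without fresh replicates 1 and 3, and 3081 and 3114 without vehicle replicates 2 and 3. In each of these fits but that without fresh replicate 2, a smaller share of ribosomal protein genes than of all genes rose. Fresh replicate 2 held the highest level of the fresh libraries in Rpl5, Rpl6 and Rpl29. Reads of ribosomal protein genes may be shared with their processed pseudogenes, so single values are uncertain.

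Enzymes that supply nucleotides, methyl groups and reducing power rose. Nucleotide synthesis rose in 25 of 32 genes and fell in 2 (median 1.20). Tk1, the thymidine kinase of S phase, stood at 0.871, 0.736 and 0.669 RPKM in fresh and 12.4, 16.2 and 12.5 RPKM in vehicle libraries, a log2 change of 3.06 (SE 0.16, limma adjusted p = 7.6e-06). Dut, which removes dUTP, and Tyms, which makes thymidylate, rose by 2.44 and 2.39, and Adsl, of purine synthesis, by 1.89. Of 31 genes of serine, one-carbon and proline synthesis 18 rose and 5 fell. Shmt2 and Mthfd1l, mitochondrial enzymes of the folate cycle, stood at 26.2, 37.3 and 29.6 RPKM in fresh and 162, 189 and 181 RPKM in vehicle libraries and at 3.69, 3.42 and 5.28 RPKM in fresh and 31.6, 31.8 and 29.9 RPKM in vehicle libraries, and Pycr1, the last enzyme of proline synthesis, rose by 2.55. Glul, the glutamine synthetase, went the other way, at 100.2, 211 and 149.7 RPKM in fresh and 8.102, 8.32 and 7.37 RPKM in vehicle libraries, a log2 change of -4.05 (SE 0.25, limma adjusted p = 1.5e-05).

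Of 36 genes of glutathione, the stress factor NRF2 and the pentose phosphate pathway 21 rose and 5 fell, and 8 fell without fresh replicate 1. Among enzymes that make NADPH, Pgd, of the pentose phosphate pathway, stood at 6.04, 4.75 and 5.502 RPKM in fresh and 39.6, 46.002 and 45.4 RPKM in vehicle libraries and Me1, the malic enzyme, at 1.02, 1.39 and 1.83 RPKM in fresh and 21.9, 19.2 and 19.3 RPKM in vehicle libraries, and both rose. Nqo1, a quinone reductase and NRF2 target, stood at 2.23, 3.18 and 1.08 RPKM in fresh and 31.2, 28.9 and 27.1 RPKM in vehicle libraries and rose by 3.30, while Srxn1, the sulfiredoxin and also an NRF2 target, stood at 167, 446 and 673 RPKM in fresh and 62.98, 65.03 and 67.5 RPKM in vehicle libraries and fell by 2.48. The glutathione transferases split too: Gstp1 rose by 2.53 and Gstm2 fell by 4.03. In Srxn1 the fresh libraries spread widely, with replicate 1 the lowest.

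Polyamine genes rose in 8 of 15 members and fell in 5, or in 3 without fresh replicate 3 or vehicle replicates 1 or 2. Their shares were 53.3% higher and 33.3% lower, against 29.2% and 32.3% of all genes. The share that fell was thus near that of all genes. Srm, the spermidine synthase, stood at 104, 174 and 138 RPKM in fresh and 393, 457 and 484 RPKM in vehicle libraries, and Sat1, which marks polyamines for breakdown, at 315, 492 and 386 RPKM in fresh and 17.7, 19.4 and 19.7 RPKM in vehicle libraries. Srm rose by 1.70 and Sat1 fell by 4.30 (SE 0.19, limma adjusted p = 3.8e-06), so the making enzyme and the breaking enzyme moved apart. The Myc network had 2 of 13 members higher (15.4%) and 7 lower (53.8%), and 5 higher and 4 lower after rescaling to the same sum. Myc stood at 785, 1465 and 1289.9 RPKM in fresh and 285, 288 and 313 RPKM in vehicle libraries and changed by -1.95 (SE 0.29, limma adjusted p = 8.0e-04). Of its antagonists, Mxd1 stood at 11.3, 8.71 and 10.5 RPKM in fresh and 0.233, 0.29 and 0.309 RPKM in vehicle libraries, and Mxd3, the one found in dividing cells, at 1.803, 1.57 and 1.196 RPKM in fresh and 6.23, 6.79 and 6.21 RPKM in vehicle libraries. Mxd1 changed by -3.12 and Mxd3 by 1.56.

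Amino acid and glucose transporters fell more often than they rose. Of 33 amino acid and glucose transporters 17 fell and 6 rose. Slc7a8, an exchanger of large neutral amino acids, stood at 34.8, 30.8 and 52.9 RPKM in fresh and 0.125, 0.0653 and 0.16 RPKM in vehicle libraries, a log2 change of -5.14 (SE 0.21, limma adjusted p = 3.4e-06). The glucose carriers Slc2a12, Slc2a10, Slc2a3 and Slc2a1 changed by -2.99, -2.81, -2.09 and -1.15. The last lost its call after rescaling to the same sum. Among all 213 measured solute carriers 54 rose and 77 fell, near the shares of all genes (29.2% and 32.3%), and 82 rose and 46 fell after that rescaling. The V-ATPase, the proton pump of lysosomes, fell in 11 of 18 subunits and accessory genes and rose in 1. Within libraries, summed RPKM of the proteasome over the V-ATPase was 3.28, 3.81 and 3.44 in fresh and 8.26, 8.06 and 8.28 in vehicle libraries (exact permutation p = 0.1).

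Iron and haem genes changed in both directions: of 32 measured, 10 rose and 7 fell, where 29.2% of all genes rose and 32.3% fell. Tfrc (chr16:32608920-32632794), the transferrin receptor that takes up iron, stood at 4.97, 4.45 and 4.58 RPKM in fresh and 40.1, 37.1 and 35.96 RPKM in vehicle libraries, a log2 change of 2.77 (SE 0.12, limma adjusted p = 3.9e-06). Slc40a1, the exporter ferroportin, stood at 4.76, 5.41 and 7.52 RPKM in fresh and 0.686, 0.897 and 0.704 RPKM in vehicle libraries, and Cp, the ferroxidase ceruloplasmin that works with it, at 46.03, 31.1 and 47.01 RPKM in fresh and 1.23, 0.922 and 0.784 RPKM in vehicle libraries. They fell by 1.95 and 4.40. Slc39a14, an importer of iron and zinc, fell by 3.46, and Alad, an early enzyme of haem synthesis, rose by 2.20.

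Protein turnover, nuclear transport and splicing genes rose more often than they fell. The proteasome, which degrades ubiquitinated proteins, rose in 28 of 46 genes and fell in 2 (median 0.63), and 18 rose without vehicle replicate 2 or 3. Psmd5 and Psmg3, which assemble it, stood at 13.6, 9.34 and 7.89 RPKM in fresh and 50.05, 47.95 and 41.8 RPKM in vehicle libraries and at 2.51, 2.58 and 1.72 RPKM in fresh and 10.02, 13.1 and 14.01 RPKM in vehicle libraries. The chaperonin CCT and prefoldin, which fold actin and tubulin, rose in 9 of 16 genes and fell in 1. The count was 5 without fresh replicate 3 or vehicle replicate 1 and 4 without vehicle replicate 2 or 3. Of 56 nuclear pore and transport genes 33 rose and 2 fell (median 0.82). Nup43, of the outer ring of the pore, stood at 2.43, 2.57 and 1.87 RPKM in fresh and 17.5, 19.6 and 19.1 RPKM in vehicle libraries and rose by 2.59, and Rcc1, the exchange factor of Ran, rose by 2.15. Of 77 splicing factors 38 rose and 11 fell. Prpf31, of the tri-snRNP, stood at 5.302, 7.18 and 6.53 RPKM in fresh and 36.7, 40.02 and 37.6 RPKM in vehicle libraries, and Srsf5, an SR protein, at 263, 363 and 311 RPKM in fresh and 64.8, 70.6 and 67.9 RPKM in vehicle libraries, with log2 changes of 2.42 and -2.18.

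**Figure D4:**
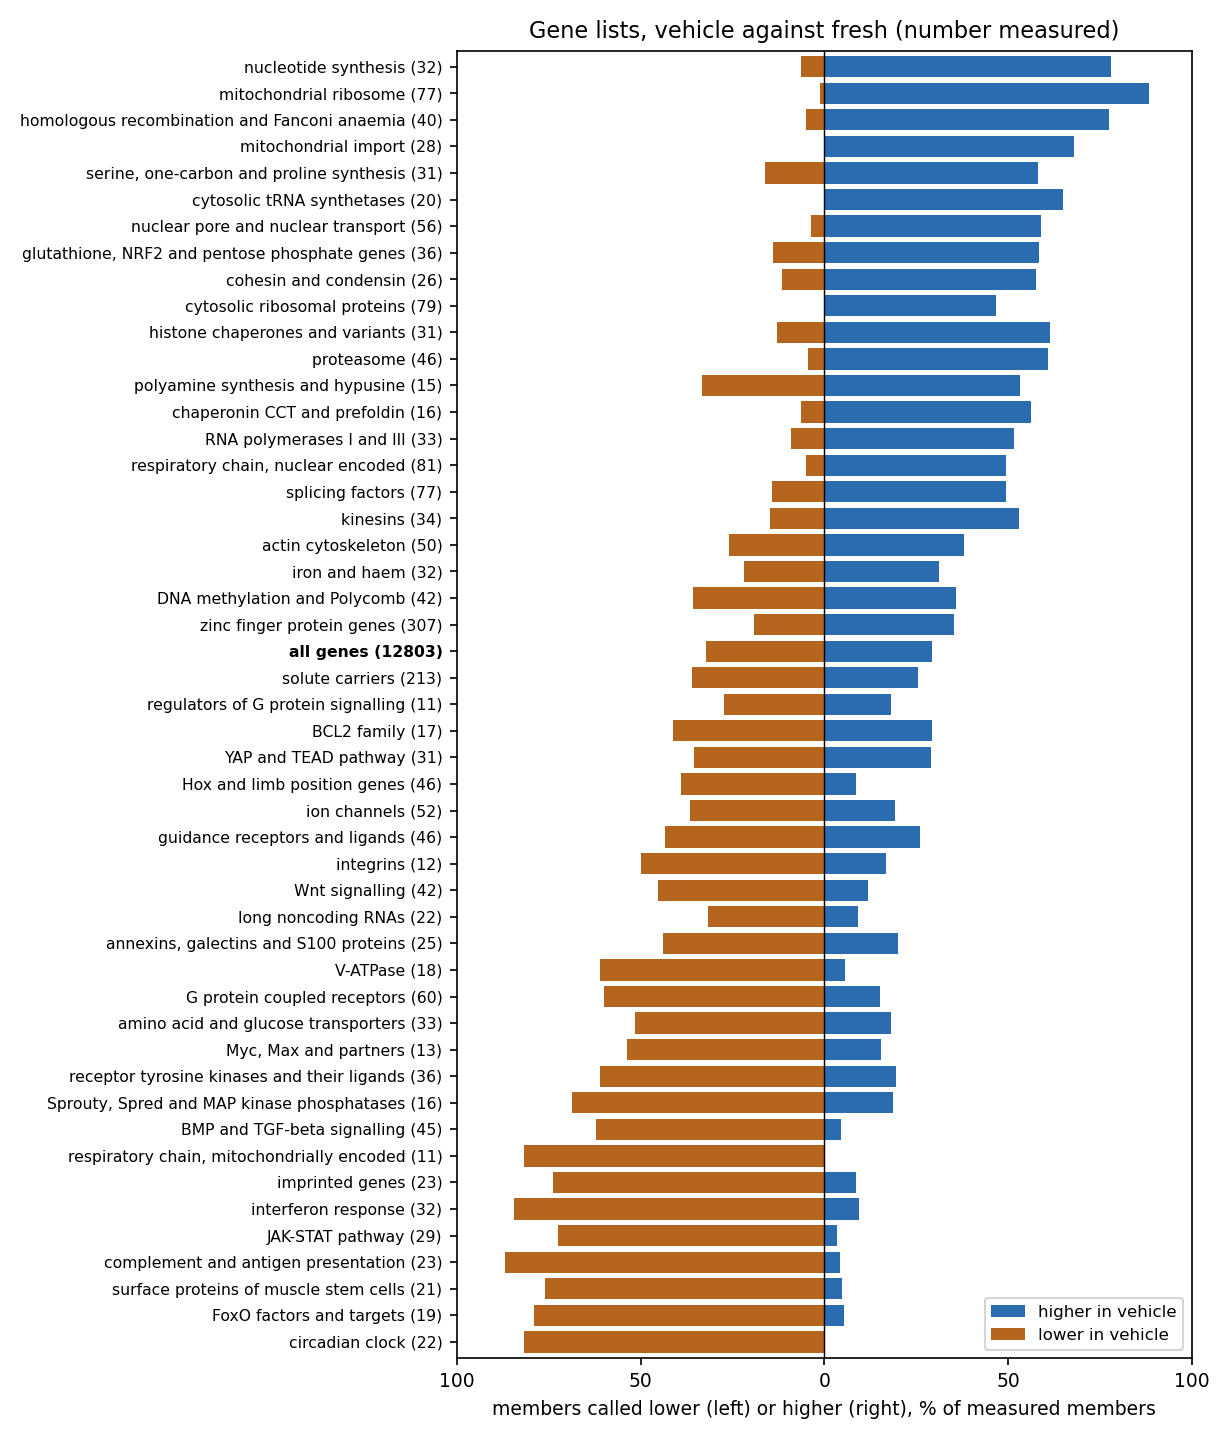
For the gene lists described, bars show the share of measured members called higher (right, blue) or lower (left, orange) in vehicle, in %, with the number measured in parentheses and lists ordered by median log2 change; all genes are in bold. Mitochondrial ribosome, homologous recombination and nucleotide genes lie at the top, and clock, FoxO, surface protein, complement and JAK-STAT genes at the bottom.

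Repair genes, histone chaperones, cohesin and condensin genes and kinesins rose more often than they fell. Of 40 genes of homologous recombination and the Fanconi pathway, which mend broken and crosslinked DNA, 31 rose and 2 fell (median 1.10). Chek1, the checkpoint kinase of stalled forks, stood at 0.801, 0.891 and 1.18 RPKM in fresh and 9.99, 10.3 and 9.59 RPKM in vehicle libraries. Histone chaperones and variants rose in 19 of 31 genes and fell in 4. Chaf1b and Chaf1a, which place histones behind the fork, rose by 3.07 and 2.70, and Ubn1, of the replication-independent HIRA complex, stood at 26.4, 29.9 and 37.7 RPKM in fresh and 6.86, 4.58 and 5.84 RPKM in vehicle libraries and fell by 2.26. DNA methylation and Polycomb genes divided into 15 higher and 15 lower of 42, or 22 and 7 after rescaling to the same sum; 35.7% each way is near the 29.2% and 32.3% of all genes. Dnmt1, which copies methylation, stood at 6.37, 4.01 and 6.86 RPKM in fresh and 56.3, 42.4 and 38.98 RPKM in vehicle libraries and rose by 2.81, whereas Tet2, which oxidises methylcytosine, and Kdm6b, which removes the Polycomb mark, fell by 1.57 and 3.29. Cohesin and condensin rose in 15 of 26 genes and fell in 3, with Cdca5, which protects cohesin, at 1.55, 1.88 and 1.53 RPKM in fresh and 16.8, 19.7 and 15.9 RPKM in vehicle libraries. Kinesins rose in 18 of 34 and fell in 5. The mitotic Kif22 stood at 1.94, 1.26 and 2.15 RPKM in fresh and 15.1, 17.8 and 11.5 RPKM in vehicle libraries and rose by 2.50, and Klc4, a light chain of the transport kinesin, fell by 1.70. Of 307 zinc finger protein genes 108 rose (35.2%) and 59 fell (19.2%), against 29.2% and 32.3% of all genes.

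Of 50 actin cytoskeleton genes 19 rose (38%) and 13 fell (26%), where 29.2% and 32.3% of all genes did. Actn1, an actin crosslinker of adhesions, stood at 3.25, 2.999 and 4.76 RPKM in fresh and 25.6, 28.1 and 24.99 RPKM in vehicle libraries, and Tpm1, a tropomyosin, at 20.4, 25.5 and 20.1 RPKM in fresh and 98.4, 119 and 135 RPKM in vehicle libraries, log2 changes of 2.56 and 2.36. Flnc, the filamin of muscle, stood at 119.8, 149 and 199 RPKM in fresh and 27.2, 22.4 and 25.7 RPKM in vehicle libraries and fell by 2.56. Of 31 YAP and TEAD genes, which respond to stretch and spreading, 9 rose and 11 fell, shares near those of all genes (29.2% and 32.3%), and 13 rose and 6 fell after rescaling to the same sum. Among their matrix-protein targets, Ccn2 stood at 174, 401 and 334 RPKM in fresh and 10.2, 16.4 and 17.9 RPKM in vehicle libraries and fell by 4.22, while Ccn1, at 2269, 1117 and 954 RPKM in fresh and 1111, 1244 and 1233 RPKM in vehicle libraries, was not called (SE 0.39, limma adjusted p = 0.73). Vgll3, a cofactor of TEAD, rose by 1.79.

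Surface proteins by which muscle stem cells are recognised fell in 16 of 21 members and rose in 1 (median -1.62). Vcam1, on which the sort was gated, stood at 179, 167 and 194 RPKM in fresh and 34.5, 35.99 and 31.6 RPKM in vehicle libraries, and Sdc4, a heparan sulphate proteoglycan, at 830.0, 1371 and 1229.6 RPKM in fresh and 157, 155 and 196 RPKM in vehicle libraries. Itga7, the laminin receptor chain of muscle, stood at 194, 83.9 and 124 RPKM in fresh and 142, 141 and 118 RPKM in vehicle libraries and was not called (SE 0.29, limma adjusted p = 0.84). Among 12 integrins 2 rose (16.7%) and 6 fell (50%), where 29.2% and 32.3% of all genes did. After rescaling 4 integrins rose and 4 fell. Itga3, another laminin receptor chain, rose from 1.44 ± 0.457 to 15.1 ± 1.72 RPKM and Itga5, of the fibronectin receptor, fell from 46.7 ± 9.39 to 15.4 ± 2.16 RPKM (mean ± SD, n = 3 in each group). Of 25 annexins, galectins and S100 proteins 5 rose (20%) and 11 fell (44%), against 29.2% and 32.3% of all genes. Lgals9 stood at 30.7, 38.2 and 29.4 RPKM in fresh and 1.49, 1.57 and 1.39 RPKM in vehicle libraries. Lgals3 stood at 4.19, 7.22 and 7.05 RPKM in fresh and 32.5, 32.9 and 24.9 RPKM in vehicle libraries. Galectins thus moved in both directions.

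Of 17 members of the BCL2 family, which set the threshold of cell death, 5 rose (29.4%) and 7 fell (41.2%), where 29.2% and 32.3% of all genes did. The split was 7 and 3 after rescaling, and 4 fell without vehicle replicate 2. Among protectors, Mcl1 stood at 546, 473 and 627 RPKM in fresh and 52.9, 59.6 and 59.8 RPKM in vehicle libraries and Bcl2 at 9.23, 7.45 and 7.16 RPKM in fresh and 1.55, 1.22 and 1.199 RPKM in vehicle libraries, with log2 changes of -3.23 and -1.94, and Bcl2l1 stood at 8.08, 7.399 and 7.39 RPKM in fresh and 24.2, 20.5 and 19.3 RPKM in vehicle libraries and rose by 1.37. Among promoters of death, Bax stood at 39.98, 54.5 and 41.1 RPKM in fresh and 161, 193 and 223 RPKM in vehicle libraries and rose by 2.07 (SE 0.19, limma adjusted p = 7.7e-05), and Bid rose by 1.57, while Pmaip1 stood at 53.1, 47.1 and 53.9 RPKM in fresh and 5.29, 3.89 and 4.23 RPKM in vehicle libraries and fell by 3.27.

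Of 46 Hox and other limb position genes 4 rose (8.70%), 18 fell (39.1%) and 24 were not called. Over all genes 29.2% rose and 32.3% fell. After rescaling 16 of the Hox list rose and 12 fell. Without fresh replicate 1, 9 rose. Msx1, a homeobox gene that holds back differentiation, stood at 10.03, 14.2 and 9.86 RPKM in fresh and 0.66, 0.384 and 0.468 RPKM in vehicle libraries, and Meox2, a homeobox gene of limb muscle, at 2.004, 2.78 and 2.07 RPKM in fresh and 0.0177, 0.00433 and 0.0567 RPKM in vehicle libraries. Of 22 long noncoding RNAs 2 rose and 7 fell (31.8%, near the 32.3% of all genes), or 4 without vehicle replicate 1, and 3 rose and 2 fell after rescaling. Mir22hg, the host of a microRNA, stood at 60.6, 84.3 and 100.4 RPKM in fresh and 15.04, 15.5 and 15.5 RPKM in vehicle libraries and fell by 2.31.

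Ratios of related genes within a library need no scaling between libraries. Of 39 measured pairs, log2 ratios of (RPKM + 0.1) did not overlap between the groups in 31, of which 25 were higher and 6 lower in vehicle, where 67.6% of single genes did not overlap. No pair can reach p = 0.05, since 3 against 3 allow no exact two-sided permutation p below 0.1, and the adjusted p over the 39 pairs was 0.126 for these 31. The order of the members was reversed in 8 pairs, with 1 gene higher in every fresh library and the other in every vehicle library. The methyltransferases of Polycomb made 1 such pair. Ezh2 over Ezh1 had log2 ratios of -1.95, -0.92 and -0.90 in fresh and 0.96, 1.45 and 1.59 in vehicle libraries. The retinoblastoma relatives Rbl1 over Rbl2 had -2.08, -0.90 and -1.23 in fresh and 2.39, 2.75 and 2.38 in vehicle libraries, and the histone chaperones Asf1b over Asf1a -1.27, -0.98 and -0.39 in fresh and 2.14, 2.23 and 1.85 in vehicle libraries. In the growth factor receptors Met over Egfr, the values were -1.49, -1.07 and -0.92 in fresh and 2.68, 2.61 and 2.25 in vehicle libraries. Top2a over Top2b, topoisomerases of dividing and of all cells, had -1.99, -1.76 and -1.74 in fresh and 0.89, 1.10 and 0.76 in vehicle libraries. In Klf5 over Klf4 and Fosl1 over Fos, also among the 8, the second gene fell and the first was not called. Fosl1 was called lower (log2 change -0.79) with the replicate block and in the fit of all 10 libraries, and also with array quality weights and without fresh replicate 1. Klf5 was called higher after rescaling to the same sum (0.89), with array quality weights and without fresh replicate 2.

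Other pairs kept their order and moved far. Cdh2 over Cdh15, N-cadherin over M-cadherin, had log2 ratios of -7.93, -8.25 and -7.54 in fresh and -2.21, -2.59 and -2.69 in vehicle libraries, and Lmnb1 over Lmna, the B1 lamin over lamin A/C, -7.54, -8.01 and -7.47 in fresh and -4.32, -3.80 and -3.40 in vehicle libraries. Cdh2 rose by 2.95 and Cdh15 fell by 1.62, and Lmnb1 rose by 2.08 and Lmna fell by 1.61. Cyclin D1 gained on both of its relatives: Ccnd1 over Ccnd2 had 4.38, 2.59 and 2.98 in fresh and 7.72, 6.71 and 7.59 in vehicle libraries. Mcl1 over Bcl2l1 fell from between 5.98 and 6.39 to between 1.13 and 1.63. Pairs whose groups overlapped included Eno1 over Eno3, enolases that both rose, with 3.75, 3.88 and 3.91 in fresh and 3.85, 3.55 and 3.70 in vehicle libraries, and Fgfr1 over Fgfr4, receptors that both fell, with -1.75, -1.26 and -0.94 in fresh and -1.14, -1.04 and -1.08 in vehicle libraries.

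**Figure D5:**
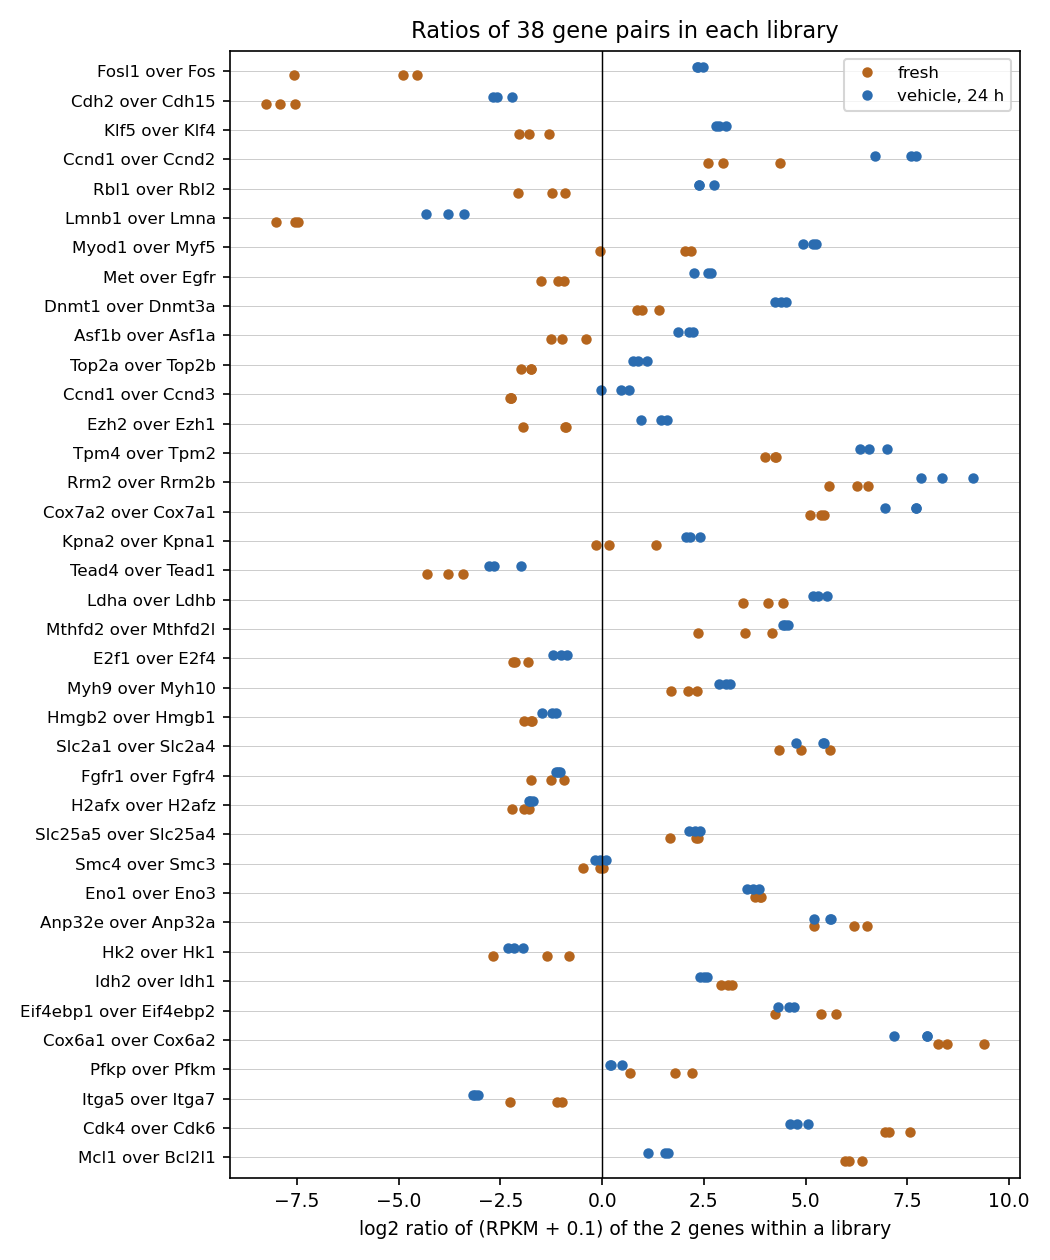
Log2 ratios of (RPKM + 0.1) of 2 genes within each library are shown as points for 38 of the 39 pairs, fresh in orange and vehicle in blue, ordered by the difference of the group means; the line at 0 marks equal levels. Fosl1 over Fos moved most, and in 7 of the pairs drawn all points cross from 1 side of the line to the other.

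Several genes often used to normalise other measurements changed. Of 22 measured, 11 rose (50%), 3 fell (13.6%) and 8 were not called, where 29.2% and 32.3% of all genes rose and fell. They were thus called about as often as all genes, of which 61.5% were called. Without fresh replicate 3 and vehicle replicate 3, 7 and 6 rose. Gusb, the beta-glucuronidase, stood at 8.38, 6.37 and 7.85 RPKM in fresh and 33.5, 35.95 and 34.2 RPKM in vehicle libraries, a log2 change of 2.07. Gapdh, of glycolysis, rose by 0.68 (SE 0.20, limma adjusted p = 0.02) and lost its call without fresh replicate 3 and without vehicle replicates 2 or 3. Tuba1a, a tubulin, stood at 303, 275 and 271 RPKM in fresh and 266, 319 and 307 RPKM in vehicle libraries and was not called (SE 0.18, limma adjusted p = 0.76), but was called higher by 0.67 after rescaling to the same sum. After that rescaling 16 of the 22 rose and 2 fell.

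Fresh libraries differed more among themselves than vehicle libraries did. Of the 3477 genes averaging at least 4 on the log2(RPKM + 1) scale, 3057 (87.9%) had the larger SD in the fresh group, and the median SD was 0.301 in fresh and 0.117 in vehicle libraries. By 2-fold differences fresh replicate 1 stood apart. Of these genes 20 were at least 2-fold above and 48 at least 2-fold below both other fresh libraries. Fresh replicate 2 had 3 above and 9 below, and fresh replicate 3 had 0 of either. In vehicle libraries these counts were 0 or 1. Array quality weights were low in fresh replicates 1 (0.268) and 2 (0.217), 2.23 in fresh replicate 3 and 0.99 to 5.44 in vehicle libraries. Txnip, a FoxO target and brake on glucose uptake, stood at 171, 52.03 and 60.2 RPKM in fresh and 8.04, 7.87 and 11.3 RPKM in vehicle libraries, and Gal, the peptide galanin, at 1199, 4216 and 2093 RPKM in fresh and 90.6, 97.5 and 88.5 RPKM in vehicle libraries. Both fell beyond this spread, by 3.05 and 4.56. Plaur, the urokinase receptor, stood at 101, 380.4 and 267 RPKM in fresh and 48.1, 50.4 and 43.4 RPKM in vehicle libraries, and Hilpda, a lipid droplet protein, stood at 18.9, 70.2 and 50.1 RPKM in fresh and 31.9, 34.9 and 43.4 RPKM in vehicle libraries and was not called, though it was called lower without fresh replicate 1.

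The number of genes on each side depended on library scaling. Summed RPKM was 392681 to 436266 in fresh and 254938 to 278042 in vehicle libraries. Rescaling to equal sums moved the median gene from -0.03 to 0.35 on the log2 scale, with the counts given above. Relative to that shift, the direction of the majority was kept in all lists but the 7 noted or listed with their rescaled counts above (BCL2, Myc, YAP, guidance, Hox, noncoding RNA and solute carriers), the integrins, which became even, and the Polycomb list, which was even and had more members higher than lower after it. More proteasome genes (43), ribosomal protein genes (74) and nuclear respiratory genes (69) rose after it, as did more members of the actin (30), iron (21), transporter (10), Wnt (11), BMP (8), imprinted (5) and zinc finger (172) lists. Fewer members fell in the Sprouty and phosphatase (7), splicing (6), actin (5), V-ATPase (6), Polycomb (7), polyamine (3) and zinc finger (30) lists.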

How the data were processed

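RNA of 6 libraries was analysed, 3 of fresh and 3 of vehicle-treated muscle stem cells. Per the labels' protocols, SMART-Seq v4 cDNA of 5 ng RNA was sequenced as pairs of 150 bp. The tools named in the submitters' processing notes are STAR, Trim Galore, edgeR, Subread and its featureCounts, with mm10 as the build; versions, annotation and strand setting are not given in the sources used here. The deposited table holds RPKM for 12803 genes, computed by the authors. No header names the unit; it was read from the values: multiplied by exon length (GENCODE M21, 12710 genes matched) and 1 factor per library, values were whole reads, within 0.05 reads in all 10 libraries, for 11655 genes (91.7%). Reads in the table over the authors' scaled library size were 1.40 to 1.42 in fresh and 0.912 to 0.931 in vehicle libraries, so levels depend on that scaling. No value is exactly 0, and 1310 values of 545 genes in the 6 libraries lay under 1 read. The table repeats 7 symbols.

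Log2(RPKM + 1) of all genes was fitted with limma 3.58.1 (trend of variance with level) in R 4.3.3, on the 6 libraries only and with no block; p-values were adjusted by Benjamini-Hochberg. The fit was tested on simulated data. Other steps used scipy 1.17.1, pandas 2.3.3 and numpy 2.4.6 under Python 3.11.15, and figures matplotlib 3.10.9. The 49 gene lists, 40 gene pairs (39 measured) and 9 marker sets were chosen with earlier results of these data known, and no list was tested as a set. Genes are named by rule: up to 6 members per list with the lowest p; the 20 highest and 20 lowest log2 changes at a mean of at least 4; genes switched off; the 10 most abundant per group; members of pairs; normalisers; markers; the 10 with the largest SD in fresh libraries; and Pax7, Myod1, Myog, Ccnd1, Calcr, Fos, Hspa1b and Mcm2. The 20 highest and 20 lowest were taken among called genes whose groups did not overlap. Col6a1, Bag3, Cdca7, Hells and Cdc6 are named for the promoter they carry. Some genes under these rules are not reported here. Coordinates are of GRCm38 (mm10). Reads of near-identical or overlapping genes may not be separable. Alternatives were pseudocounts of 0.1 and 5 RPKM, a filter at a mean of 1 RPKM, rescaling to equal sums, centring on the median gene, all 10 libraries in 1 fit, a replicate block, array quality weights, voom on recovered reads with a mean of at least 10, and each library left out.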

Additional observations from a re-analysis of the deposited data

How the results depend on the processing

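The counts of genes that rose and fell, 3738 and 4132, moved by over 1.5 times only when RPKM were rescaled to the same sum in every library, to 5990 and 2730. Of genes at least 4-fold higher (315) there were 697 with a pseudocount of 0.1 RPKM, 87 with 5 RPKM, 755 after rescaling and 833 with voom on recovered reads. Of genes at least 4-fold lower (839) there were 1568 with a pseudocount of 0.1 RPKM, 421 with 5 RPKM and 1801 with voom. At least 16-fold differences (4 higher, 154 lower) were 49 and 391 with 0.1 RPKM, 0 and 69 with 5 RPKM and 98 and 710 with voom. Those of at least 64-fold (0 and 29) were 3 and 86, 0 and 16, and 18 and 254. Without each library in turn, 3081 to 3914 genes rose, 3516 to 4392 fell, 307 to 329 were at least 4-fold higher and 824 to 875 at least 4-fold lower. The replicate block gave 3735 higher and 4158 lower genes, and 315 and 839 at least 4-fold. Deviations of same-numbered libraries from their group means correlated at 0.398, 0.264 and -0.273. Over all combinations of a fresh and a vehicle library the values ran from -0.60 to 0.52. With 3 libraries per group, these values cannot tell whether same-numbered libraries came from 1 animal.

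Over the 49 lists and 9 marker sets, the majority of calls changed side after rescaling in the BCL2 (7 higher, 3 lower), Myc (5 and 4), YAP (13 and 6), guidance (15 and 14), Hox (16 and 12), noncoding RNA (3 and 2) and solute carrier lists (82 and 46), and on centring on the median gene in the YAP list (10 and 8). The log2 ratio Tead4 over Tead1, vehicle minus fresh, was 1.35 with 0.1 RPKM added to both and -0.051 with 1 RPKM; Tead4 lay under 1 RPKM in every library. The ratio Slc2a1 over Slc2a4, whose groups overlapped, went from 0.28 to -0.55 with 1 RPKM, and the other 37 of 39 pairs kept their direction; all 39 did with 0.01 RPKM. Without fresh replicate 1, 3 pairs with overlapping groups changed direction. The mitochondrially encoded list had no value with voom, since these genes had no matched length. The filter at a mean of 1 RPKM left fewer members in the Wnt, receptor kinase, ion channel and guidance lists and so fewer calls. Levels near 1 read (0.0208 to 0.0339 RPKM in a gene of 1 kb) limit the folds of genes that fell to almost none, and 3 animals per group limit every test.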
